A study of Homo sapiens with 12 samples.

Results

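The nuclear-encoded genes of the mitochondrial respiratory chain were examined in FaDu cells with and without STING, before and after fractionated radiation. They were taken as all genes whose listed symbol begins with NDUFA, NDUFB, NDUFC, NDUFS, NDUFV, UQCR, COX4 to COX8 or ATP5, together with SDHA to SDHD, leaving out pseudogenes and antisense genes. This gave 98 genes, of which 88 reached 1 TPM (transcripts scaled by gene length and library total) in at least 3 of 12 libraries and are described here, out of 15973 genes that passed that filter and 58288 listed. The name respiratory chain subunit holds for 75 of the 88, namely 37 of complex I, 4 of complex II, 8 of complex III, 11 of complex IV and 15 of complex V. The other 13 share the prefix only. They are the 8 complex I assembly factors NDUFAF1 to NDUFAF8, COX7A2L, NDUFA4L2, UQCRHL, ATP5S and the readthrough gene ATP5J2-PTCD1.

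FaDu is an established line of head and neck squamous cell carcinoma. RNA was sequenced from cells carrying Cas9 with a non-targeting guide RNA (STING WT) and from cells with a guide RNA against STING, genotype STING-/- (STING KO), either unirradiated (0Gy) or given 4 daily fractions of 2 Gy (RT), with 3 libraries in each of the 4 groups. Both lines were made by lentiviral transduction and puromycin selection, the KO rests on 1 guide, and the sources do not say whether the libraries are separate cultures, so p-values measure the spread between these libraries. TMEM173, which encodes STING, was at 21.7, 23.5 and 21.1 TPM in the unirradiated WT libraries and 5.18, 5.29 and 6.96 TPM in the unirradiated KO libraries, then 26.1, 21.4 and 21.7 TPM in irradiated WT and 6.35, 7.41 and 7.08 TPM in irradiated KO. The KO libraries lay below every WT library (log2 fold change -1.77 at 0Gy and -1.60 after RT, limma adjusted p = 1.2e-05 and 2e-05).

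In all 12 libraries the TPM summed to 1000000, so a value is a share of the library and keeps no read depth. Libraries of 1 group correlated at r = 0.983 to 0.987 across genes, which are not independent replicates. All 7 squamous epithelial markers examined were above 1 TPM in every library, with summed levels of 4239 to 4718 TPM in WT 0Gy, 4932 to 6603 in KO 0Gy, 3686 to 4180 in WT RT and 4348 to 5243 in KO RT, higher in KO than in WT at both doses. KRT5 makes up most of that sum, with group means of 2587, 3790.2, 2158 and 3136 TPM in the same order, whereas TP63 (98, 91, 90.9 and 72.2 TPM) and SFN (1179.8, 1106, 1052 and 912 TPM) had lower means in KO. The 10 markers of blood, endothelial, stromal and muscle cells summed to 24.8 to 43.8 TPM, 3 of them at 1 TPM or more in every library and none at 0 in all. The part of these markers in the results was not tested.

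Respiratory complexes I and II pass electrons from NADH and succinate to ubiquinone, complex III hands them on to cytochrome c, and complex IV reduces oxygen. The proton gradient that complexes I, III and IV build across the inner mitochondrial membrane drives ATP synthesis by complex V. Apart from complex II, each complex joins a few subunits encoded by mitochondrial DNA to many encoded in the nucleus, and leakage of electrons from complexes I and III is a known source of reactive oxygen species.

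Many nuclear respiratory chain promoters are known to hold sites for NRF1 or for factors of the ETS family. RefSeq promoters (GRCh38.p14, 250 bases before to 50 after the start) were found for 72 of the 88 genes and for 10779 of the 15973 genes tested. The NRF1 motif, whose letters are the capitals of the NRF1 windows shown here, was searched on both strands like the others. It lay in 5 of the 72 (6.94%), against 2.36% of the tested genes and 1.24% of all 35116 promoters. Its shorter core GCGCATG, which overlaps it, lay in 16 (22.2%, against 7.57% and 4.43%). The ETS motif CCGGAAG lay in 20 (27.8%, against 19.4% and 10.3%), and the YY1 motif, in capitals in the ATP5J window, in 7 (9.72%, against 2.85% and 1.2%). These shares are a description of letters in a window, not of binding. SDHD, the membrane anchor of complex II whose level varied most among the 4 complex II genes, held both an NRF1 and an ETS motif. SDHB held the shorter NRF1 core, an ETS and a YY1 motif, and SDHA held none of these. No promoter was found for SDHC, nor for NDUFS5, described later. A link between motifs and level was not tested. UQCRC1 held a YY1 motif that begins 23 bases after its start. The following windows show the motifs, in capitals and on either strand, for genes described later and, for YY1, for ATP5J, coupling factor F6 of complex V.
SDHD, NRF1, chr11:112086753-112086782, plus strand: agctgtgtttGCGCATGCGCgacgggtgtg
SDHD, ETS, chr11:112086786-112086815, plus strand: cgcctctcgaCTTCCGGttcacccagcatt
NDUFB4, NRF1, chr3:120596167-120596196, plus strand: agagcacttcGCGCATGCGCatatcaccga
SDHB, ETS, chr1:17054141-17054170, minus strand: acccgggaaaCCGGAAGccgcctcccactt
UQCRH, ETS, chr1:46303642-46303671, plus strand: gtgtgccgcaCTTCCGGccagatcgccgga
UQCRQ, ETS, chr5:132866578-132866607, plus strand: atggtatctcCCGGAAGttacctcacgacc
COX6A1, ETS, chr12:120438083-120438112, plus strand: attttccacttccgCTTCCGGcgctgcggc
NDUFS1, ETS, chr2:206159582-206159611, minus strand: gctggggccaCTTCCGGcggaactgcgggt
ATP5J, YY1, chr21:25735092-25735121, minus strand: aggcgaagaaAAGATGGCGGaggctgtgcc

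The 88 genes together made up 14986 to 16366 TPM, at most 1.64% of a library, with group means of 15241 ± 221 TPM in WT 0Gy, 15739 ± 543 in KO 0Gy, 15497 ± 186 in WT RT and 15687 ± 235 in KO RT (SD, n = 3). The unirradiated KO libraries, from 15401 TPM up, lay just above the unirradiated WT libraries, which reached 15376 TPM, and the irradiated groups overlapped. The 75 subunits spanned a 27.5-fold range of mean TPM. The highest was UQCRH, the hinge subunit of complex III, at 781 TPM. COX6A1 of complex IV followed at 774 TPM, NDUFS5 of complex I at 660.3 TPM and ATP5F1, the b subunit of the peripheral stalk of complex V, at 652 TPM. The lowest was NDUFS7, an iron-sulfur subunit of complex I, at 28.5 TPM.

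**Figure D1:**
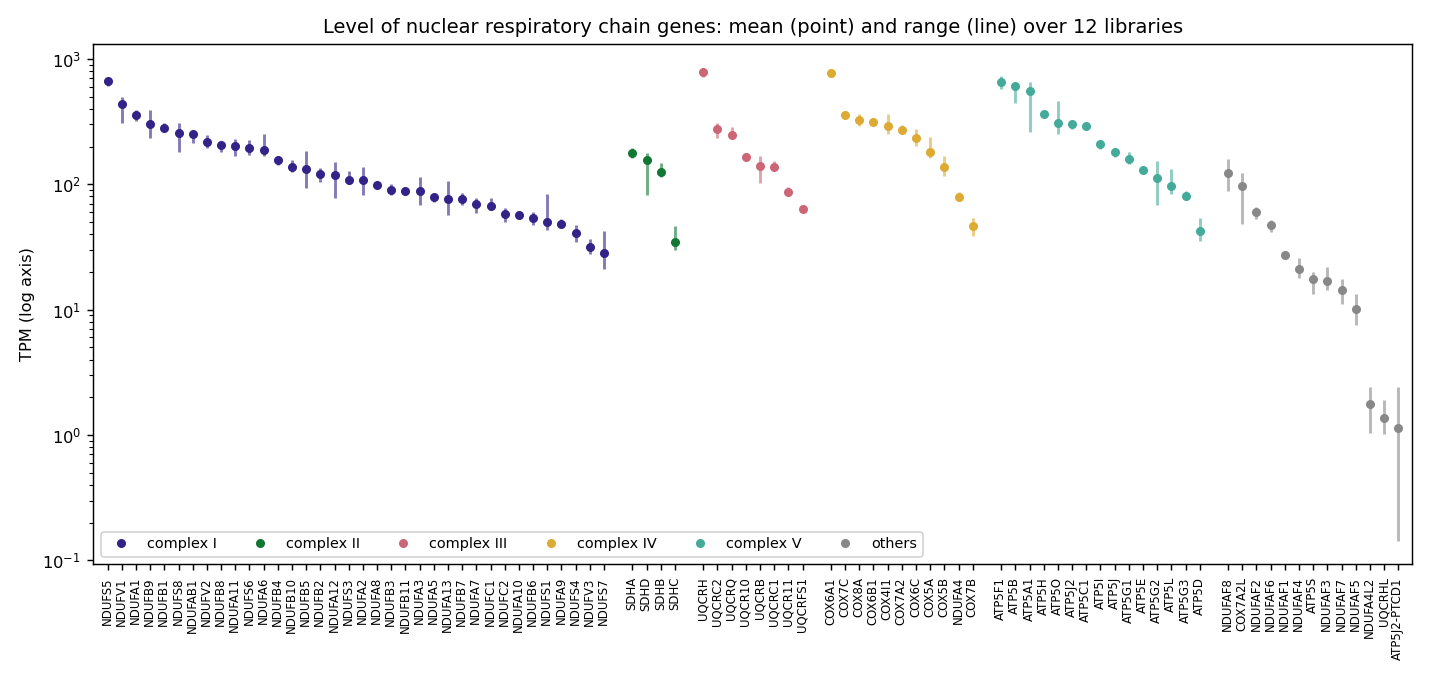
Mean TPM over the 12 libraries (point, log axis) with the lowest and highest library (line) for each gene shown, ordered within complexes I to V and the 13 other genes. UQCRH (781 TPM) and COX6A1 (774 TPM) lead, and NDUFA4L2, UQCRHL and ATP5J2-PTCD1 sit near 1 TPM.

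Within complex I the flavoprotein NDUFV1, which holds the NADH site, was at 437 TPM and its partner NDUFV2 at 217. The iron-sulfur subunits NDUFS1 and NDUFS8 were at 49.8 and 257 TPM. In complex II the catalytic flavoprotein SDHA was at 178 TPM, the iron-sulfur SDHB at 125, and the anchors SDHC and SDHD at 34.3 and 155. The files list SDHA pseudogenes at 13.5% of the SDHA level, the largest such share among the 88 genes, and reads of near-identical copies could be split between them. The core genes of complex III, UQCRC1, UQCRC2 and the Rieske protein UQCRFS1, were at 136, 274 and 63.1 TPM. In complex IV, COX5A and COX5B, which with COX4I1 flank the catalytic core, were at 182 and 137 TPM. In complex V the catalytic β subunit ATP5B was at 608 TPM and the α subunit ATP5A1 at 550.0.

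Of the tissue-restricted isoforms, 1 member of each pair carried the level. COX4I1, COX6A1, COX6B1, COX7A2 and COX8A were at 289.8, 774, 314, 271 and 324 TPM. Their counterparts COX4I2, COX6A2 and COX7A1, and also COX7B2, were listed at 0 in every library, and COX6B2 and COX8C stayed at or below 0.549 and 0.987 TPM. NDUFA4, a complex IV subunit despite its name, was at 79.3 TPM and its paralogue NDUFA4L2 at 1.04 to 2.42. The remaining genes below the filter were ATP5J2LP, ATP5L2, NDUFC2-KCTD14 and a second row named SDHD, with means of 0, 0.215, 0.186 and 0.254 TPM. UQCRHL, a near copy of UQCRH, was at 1.01 to 1.89 TPM, and its level is uncertain for that reason.

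The c subunit of the rotor ring of complex V is encoded by ATP5G1, ATP5G2 and ATP5G3, which give the same mature protein. ATP5G1 held 41.8 to 52.8% of their summed TPM, ATP5G2 22.4 to 36.5% and ATP5G3 20.1 to 25.7%. ATP5G2 was the variable one, at 77, 139.8 and 153 TPM in WT 0Gy, 134, 122 and 119 in KO 0Gy, 111, 98.6 and 68.1 in WT RT and 98.5, 100 and 115 in KO RT. One WT 0Gy and one WT RT library held its lowest values, below every KO library. The radiation effect in WT for ATP5G2 was a log2 fold change of -0.38 (SE 0.24, 95% interval -0.91 to 0.15, adjusted p = 0.46), an interval that takes in 0.

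**Figure D2:**
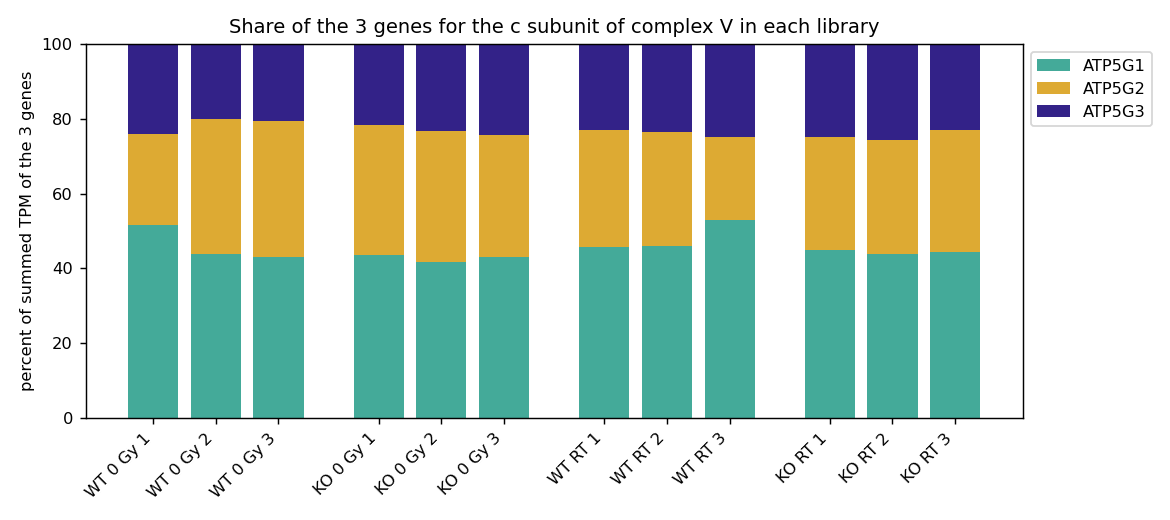
Share (percent of summed TPM) of ATP5G1, ATP5G2 and ATP5G3 in each of the 12 libraries. ATP5G1 was the largest share in all 12, and ATP5G2 was at 24.5% in WT 0Gy replicate 1 and 22.4% in WT RT replicate 3, its lowest shares.

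To ask whether loss of STING alters respiratory chain mRNA in unirradiated cells, KO 0Gy was compared with WT 0Gy, using limma on log2(TPM + 1) with Benjamini-Hochberg adjustment over all 15973 genes. No member passed an adjusted p of 0.05, against 1.73% of all genes (0.463% higher and 1.26% lower), and 12 of 88 had an unadjusted p under 0.05, against 14.3% of all genes. The median log2 fold change of the 88 was 0.029 and that of all genes -0.021. The libraries of the groups did not overlap for 16 of the 88 (18.2%), against 20.6% of all genes. The 95% interval of the fold change lay within ±0.5 on the log2 scale for 71 of the 88 (80.7%; all genes 62.4%) and within ±1 for 87. These shares were not matched for level: the 88 had a median level of 124 TPM, and the genes tested reach down to the filter at 1 TPM. By complex the medians were 0.041 (I), 0.030 (II), 0.12 (III), 0.14 (IV) and -0.032 (V). Above 0 were 7 of 8 complex III genes (87.5%) and 8 of 11 complex IV genes (72.7%), against 44.4% of all genes. In the mean level of these complexes, given below by library, the unirradiated WT and KO groups overlapped. In summed TPM they overlapped for complex IV but not for complex III, at 1780 to 1826 in WT 0Gy and 1897 to 2033 in KO 0Gy.

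NDUFS5, a small accessory subunit of the complex I membrane arm (chr1:39026318-39034636, plus strand, GENCODE v29, GRCh38), came nearest. It was at 629.7, 649 and 619 TPM in WT 0Gy and 707, 709.7 and 686 TPM in KO 0Gy. The 3 KO libraries lay above the 3 WT libraries, with a log2 fold change of 0.15 (SE 0.032, 95% interval 0.076 to 0.22, adjusted p = 0.055). It passed the threshold under 4 of the alternatives described with the processing. NDUFA2, an accessory subunit of the complex I matrix arm, had the largest difference among the subunits, from 85, 94.6 and 119 TPM in WT to 139, 132 and 131 in KO. Its groups did not overlap, but the value, 0.44 (SE 0.16, 95% interval 0.087 to 0.79, adjusted p = 0.23), missed the threshold. In complex III the small subunit UQCRQ had a log2 fold change of 0.17 (adjusted p = 0.14), and in complex IV COX7C had a log2 fold change of 0.15 (adjusted p = 0.14) and COX5A 0.27 (adjusted p = 0.3). The largest values in complexes II and V were SDHC at 0.14 (adjusted p = 0.68) and the δ subunit ATP5D at 0.22 (adjusted p = 0.5).

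After radiation the same comparison, KO RT against WT RT, gave 1 member higher and none lower. The background was 3.59% of all genes called (0.927% higher and 2.66% lower). An unadjusted p under 0.05 was found for 14 of the 88 (all genes 17.9%), and the groups did not overlap for 13 (14.8%; all genes 24.1%). The median was 0.014 and that of all genes -0.017. The interval lay within ±0.5 for 68 members (77.3%; all genes 60.4%), again not matched for level. The medians by complex were 0.033 (I), -0.15 (II), -0.037 (III), 0.020 (IV) and 0.039 (V).

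The gene called was NDUFS5. It was at 623, 626 and 610.3 TPM in WT RT and 680.3, 688 and 697 TPM in KO RT. All KO libraries lay above all WT libraries, and the level was 11.1% higher, a log2 fold change of 0.15 (SE 0.032, 95% interval 0.079 to 0.22, adjusted p = 0.031). The difference is small, and it was past the threshold in 11 of 22 alternatives, with adjusted p between 0.011 and 0.12. The call was lost without any 1 of the 6 irradiated libraries (adjusted p 0.061 to 0.10). The radiation effect on NDUFS5 was -0.029 in WT and -0.026 in KO. Both comparisons put NDUFS5 higher in KO in separate libraries. They compare the same KO and WT lines and share an estimate of the spread, so they are not independent.

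Of the 14 members with an unadjusted p under 0.05 in irradiated cells, 9 were above 0 and 5 below. Those above 0 that came nearest after NDUFS5 were NDUFA1, a membrane arm subunit, with a log2 fold change of 0.16 (adjusted p = 0.13), and the assembly factor NDUFAF1, with 0.14 (adjusted p = 0.16), both with groups that did not overlap. ATP5F1 followed with 0.15 (adjusted p = 0.18). NDUFB6, an accessory subunit of the membrane arm, was at 59.7, 56.6 and 55.2 TPM in WT RT and 51.5, 50.1 and 47.6 in KO RT, with a log2 fold change of -0.20 (SE 0.051, 95% interval -0.31 to -0.083, adjusted p = 0.068). NDUFAF7, a methyltransferase needed for complex I assembly, was at 15.6, 16.2 and 17.7 and 12, 11.1 and 13.8 TPM, with a log2 fold change of -0.40 (SE 0.11, 95% interval -0.63 to -0.17, adjusted p = 0.071). In both, every KO library lay below every WT library. NDUFAF7 passed the threshold with the replicate number as a block (adjusted p = 0.040) and without WT 0Gy replicate 3 (0.046), and NDUFB6 with a filter at a mean TPM of 20 (0.047). COX4I1, the regulatory subunit of complex IV, had a log2 fold change of -0.30 (adjusted p = 0.23) and SDHB -0.24 (adjusted p = 0.12), again without overlap. The largest values in complexes I and III were -0.31 (adjusted p = 0.54) for NDUFB5 and 0.10 (adjusted p = 0.28) for UQCRH. SDHB passed the threshold without KO 0Gy replicate 1 (adjusted p = 0.0498).

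**Figure D3:**
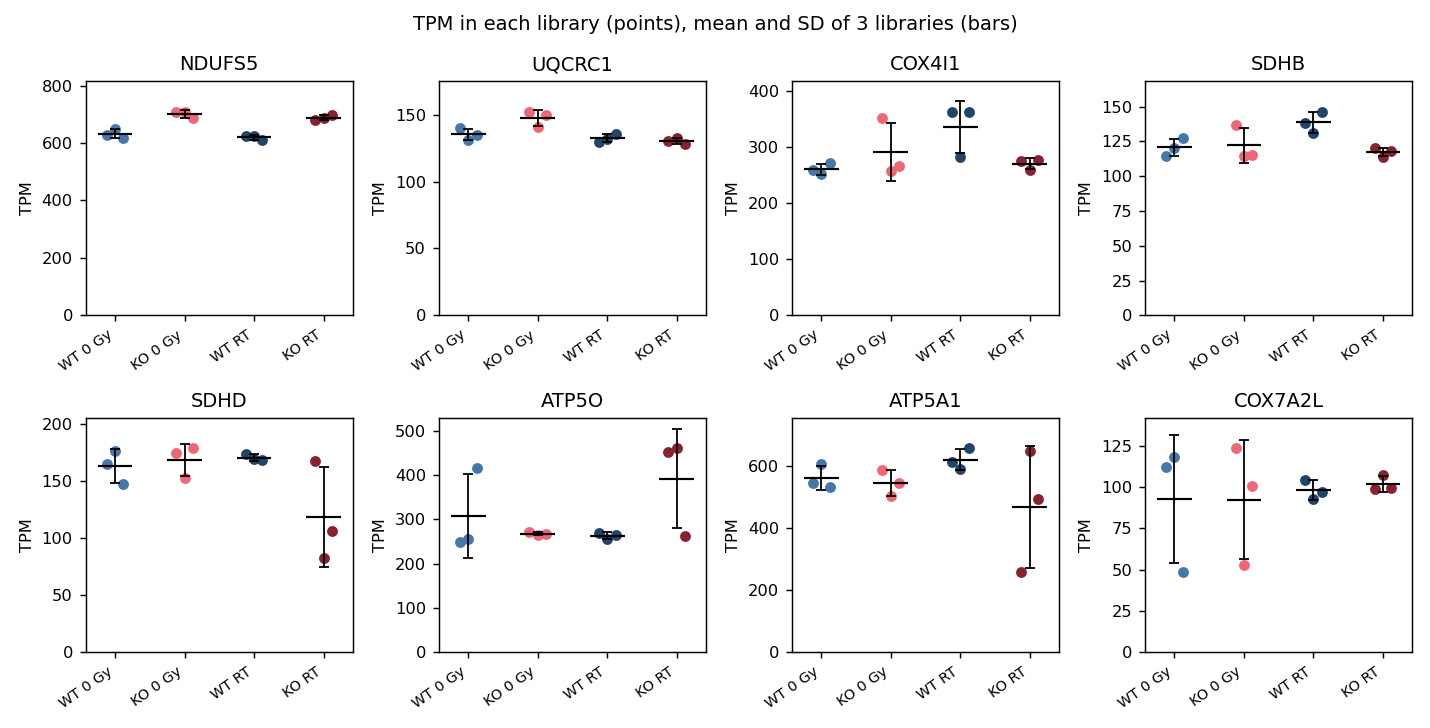
TPM of 8 genes in each library (points), with mean and SD of the 3 libraries of each group (bars). NDUFS5 and UQCRC1 have narrow groups, whereas single libraries stand apart for SDHD, ATP5O, ATP5A1 and COX7A2L.

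Complex II had the median furthest from 0 among the complexes in irradiated cells. All 4 of its genes had fold changes below 0 in KO RT against WT RT, and none passed the threshold. SDHD (chr11:112086773-112120013, plus strand) was at 165, 176 and 147 TPM in WT 0Gy and 174, 152 and 179 in KO 0Gy. It was then at 174, 169 and 168 TPM in WT RT and 167, 82.1 and 106 TPM in KO RT. The first KO RT library stood with the WT RT libraries and the other two far below, so that the groups did not overlap but the spread was large, with a log2 fold change of -0.58 (SE 0.2, 95% interval -1.02 to -0.14, adjusted p = 0.15). Without KO RT replicate 1, the library that stood with WT RT, the value was -0.86 (adjusted p = 0.0045). SDHD passed the threshold in no other alternative. TIMM8B, which overlaps SDHD on the opposite strand, was at 54.7, 17.3 and 18.8 TPM in WT RT and 19.0, 51.6 and 51.2 in KO RT, so the 2 KO RT libraries low in SDHD were the 2 high in TIMM8B. It was also at 51.9 to 58 TPM in 4 libraries of the other groups, where SDHD was not low, and the strand setting of the counting is not given in the sources used here. The part of TIMM8B in the SDHD values was not tested.

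SDHB was at 138, 131 and 146 TPM in WT RT and 120.3, 114 and 118 in KO RT. SDHA was at 183, 196 and 172 and 172, 174 and 191 TPM, with a log2 fold change of -0.034 (adjusted p = 0.84), and SDHC had a log2 fold change of -0.058 (adjusted p = 0.86). In SDHA and SDHC the irradiated groups overlapped.

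The radiation effect was then taken in each genotype. The WT and KO comparisons within 1 dose share their samples with the radiation comparisons, so no value of one is offered as support for another. In WT cells, RT against 0Gy gave no member past the threshold in limma, against 3.74% of all genes (2.24% higher and 1.5% lower), with 8 of 88 at an unadjusted p under 0.05 (all genes 18.2%). The groups did not overlap for 12 members (13.6%; all genes 24.8%). The median was 0.0066 and that of all genes 0.017, and all 88 intervals lay within ±1 on the log2 scale.

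NDUFS4, a complex I subunit near the NADH module, had the lowest adjusted p in WT cells, at 44.1, 42.3 and 39.9 TPM in WT 0Gy and 36.6, 34.8 and 35 in WT RT. Its groups did not overlap, with a log2 fold change of -0.24 (SE 0.073, 95% interval -0.40 to -0.078, adjusted p = 0.11). COX4I1 was at 259.5, 251 and 271 TPM in WT 0Gy and 364, 282 and 362 in WT RT. Here too the groups did not overlap, with a log2 fold change of 0.36 (SE 0.12, 95% interval 0.084 to 0.63, adjusted p = 0.16). The largest value was that of NDUFB5 of the complex I membrane arm, 0.46 (adjusted p = 0.32). UQCRC2 and ATP5B had a log2 fold change of 0.22 (adjusted p = 0.26) and 0.25 (adjusted p = 0.19), and SDHB 0.20 (adjusted p = 0.19), all with groups that did not overlap.

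In KO cells, RT against 0Gy gave 1 member lower and none higher, against 3.69% of all genes called (1.7% lower and 2% higher). An unadjusted p under 0.05 was found for 7 of 88 members (all genes 18.1%), and the groups did not overlap for 8 (9.09%; all genes 24.3%). The median was -0.011 and that of all genes 0.019. By complex the medians were -0.0075 (I), -0.034 (II), -0.036 (III), -0.065 (IV) and 0.017 (V).

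The gene called was UQCRC1, a core subunit of complex III (chr3:48599002-48610976, minus strand). It was at 152, 141 and 150.1 TPM in KO 0Gy and 130.1, 133 and 128 TPM in KO RT. All irradiated KO libraries lay below all unirradiated ones, a log2 fold change of -0.18 (SE 0.044, 95% interval -0.28 to -0.085, adjusted p = 0.049). In WT it was at 139.8, 131 and 135 TPM at 0Gy and 129, 132 and 136 after RT, with a log2 fold change of -0.031 (adjusted p = 0.77). The unirradiated KO libraries were thus the high group, above all 3 WT 0Gy libraries. The adjusted p sits at the threshold, and it was passed in 4 of 22 alternatives (range 0.033 to 0.16) and in none of the 12 that left out a library (0.053 to 0.14). The difference of the 2 radiation effects was a log2 fold change of -0.15 (SE 0.062, 95% interval -0.29 to -0.014, adjusted p = 0.74), which did not pass.

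NDUFB4 of the membrane arm was closest behind, at 167, 167 and 165 TPM in KO 0Gy and 157, 150.0 and 142 in KO RT, with a log2 fold change of -0.15 (SE 0.042, 95% interval -0.24 to -0.056, adjusted p = 0.086). It passed the threshold with median-of-ratios scaling (adjusted p = 0.048). SDHD had a log2 fold change of -0.56 (adjusted p = 0.16). Without KO RT replicate 1 it was -0.84 (adjusted p = 0.0077), the only alternative in which SDHD passed here. NDUFA2 had a log2 fold change of -0.32 (adjusted p = 0.33) and COX5A -0.14 (adjusted p = 0.55), and ATP5O 0.50 (adjusted p = 0.27).

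**Figure D4:**
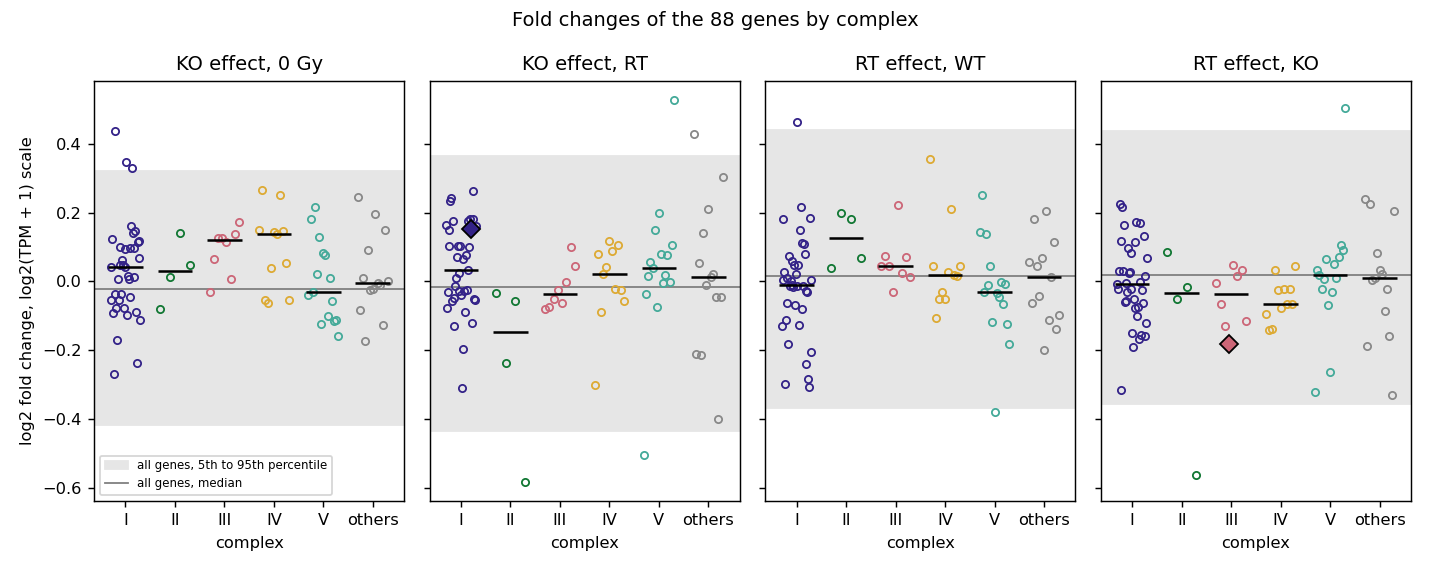
Log2 fold change of each of the 88 genes (open circles) by complex in 4 comparisons, with the median of each complex (black line), the median of all genes (grey line) and the 5th to 95th percentile of all 15973 genes (grey band). The 2 filled diamonds are the genes past the threshold, NDUFS5 in the KO effect after RT and UQCRC1 in the radiation effect in KO.

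ATP5O, the OSCP subunit that joins the head of complex V to its stalk, had the largest fold changes of complex V in the KO effect after RT and in the radiation effect in KO. It was at 249.7, 256 and 417 TPM in WT 0Gy and 271, 266 and 266 in KO 0Gy. In irradiated cells it was at 270.1, 256 and 264 TPM in WT and 452, 461 and 263 in KO. The third WT 0Gy library and 2 of the KO RT libraries stood at 417 TPM or more and the remaining 9 lay between 249.7 and 271, so the values fell on 2 levels that did not follow the groups. The KO effect after RT was a log2 fold change of 0.53 (SE 0.23, 95% interval 0.027 to 1.03, adjusted p = 0.25).

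In ATP5A1, 1 library stood apart, with values of 615, 591 and 659 TPM in WT RT and 259.7, 650.2 and 494 in KO RT. KO RT replicate 1 lay far below the other 11 libraries, which ran from 494 to 659 TPM, and the KO effect after RT was a log2 fold change of -0.51 (adjusted p = 0.34). COX7A2L, which is known for its role in supercomplex assembly, was at 112, 118 and 48.4 TPM in WT 0Gy and 123, 52.7 and 101 in KO 0Gy, with 1 low library in each. NDUFS1 was at 50.6, 43.2 and 83.6 TPM in KO 0Gy, the last of these being its highest value in any library.

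Libraries that stand apart were about as frequent among all genes. The ratio of the highest to the lowest library of a group was 1.5 or more in some group for 17 of the 81 members with a mean TPM of 20 or more (21.0%), against 19.8% of 7110 genes at that level. The coefficient of variation within groups had a median of 6.08% in those 81 genes and 6.64% in the 7110. It ran from 1.71% for NDUFS5 to 19.97% for NDUFB5 among the subunits. Of the 21 members with a ratio of 1.5 or more at any level, 9 overlap another gene on the same strand, against 21 of the other 67.

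The difference of the radiation effects between KO and WT was the last comparison. Limma called no member and 0.0188% of all genes, and 5 of 88 members had an unadjusted p under 0.05 (all genes 6.61%). The largest values were 0.69 (adjusted p = 0.76) for ATP5O, -0.66 (adjusted p = 0.76) for NDUFB5, -0.63 (adjusted p = 0.75) for SDHD and -0.45 (adjusted p = 0.73) for COX4I1. The largest in complex III was a log2 fold change of -0.18 (adjusted p = 0.93) for UQCRB. The interval lay within ±0.5 for 54 members (61.4%) and within ±1 for 81 (92.0%), so a difference of that size between genotypes was not bounded for every gene.

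The mean level of each complex in each library, on the log2(TPM + 1) scale relative to the WT 0Gy mean, set these genes side by side. Complex I stood at -0.016, 0.03 and -0.014 in WT 0Gy, 0.077, 0.017 and 0.0031 in KO 0Gy, -0.034, -0.022 and 0.02 in WT RT and 0.026, 0.031 and 0.026 in KO RT. All KO RT libraries of complex I lay above all its WT RT libraries, by a narrow margin, while the unirradiated groups overlapped. Its summed TPM was higher in KO without overlap at both doses. It was 5587 or more against at most 5540 at 0Gy, and 5695 or more against at most 5666 after RT. Complex II stood at -0.0075, 0.029 and -0.022 in WT 0Gy and 0.079, -0.036 and 0.048 in KO 0Gy. After RT it stood at 0.22, 0.079 and 0.07 in WT and -0.00045, -0.21 and -0.11 in KO. All its WT RT libraries lay above all its KO RT libraries, while the unirradiated groups overlapped. Complex III stood at -0.0085, -0.036 and 0.044 in WT 0Gy and 0.14, 0.088 and 0.037 in KO 0Gy. Complex IV stood at -0.041, 0.0381 and 0.0033 in WT 0Gy and 0.17, 0.072 and 0.0374 in KO 0Gy. In the mean level of complexes III and IV the WT and KO groups overlapped at 0Gy and after RT, though the summed TPM of complex III did not overlap at 0Gy. KO 0Gy replicate 1 was the highest of the 12 libraries for complexes I, III and IV.

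**Figure D5:**
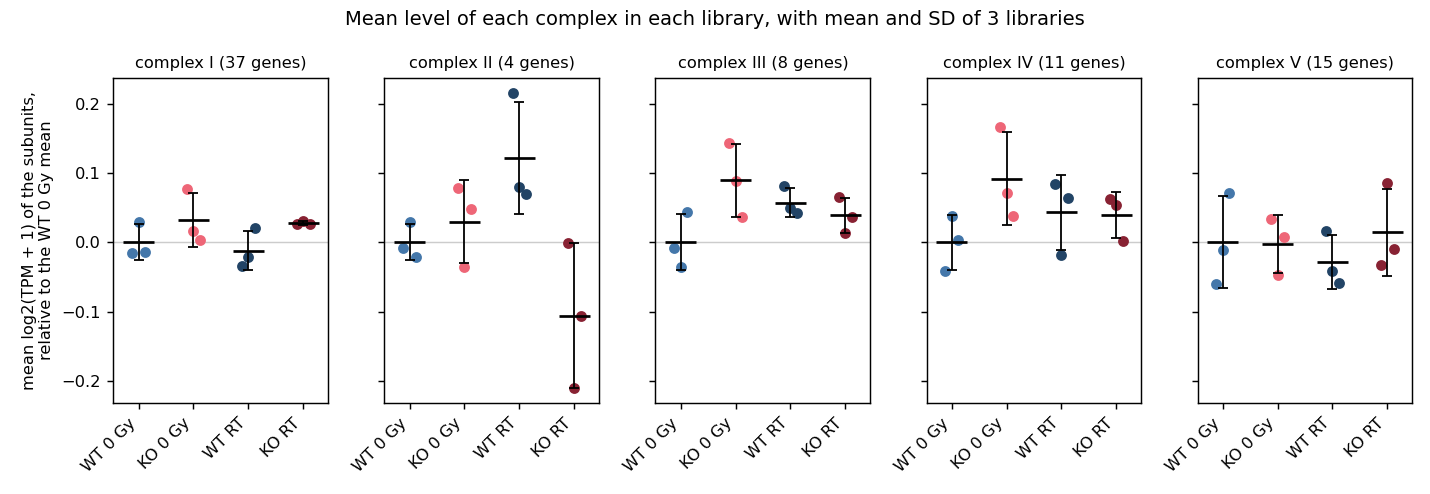
Mean log2(TPM + 1) of the subunits of each complex, relative to the mean of the WT 0Gy libraries, in each library (points) with the mean and SD of 3 libraries (bars). Complexes I, III, IV and V stay within 0.17 of the WT 0Gy mean, and complex II reaches 0.22 in WT RT and -0.21 in KO RT.

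The rest of the pathway was read from lists of assembly factors, electron carriers, mitochondrially encoded subunits and nuclear regulators. Of 55 rows for assembly factors (54 symbols, SCO2 having 2 rows, with 8 that are also members), 1 was higher and 1 lower in KO RT against WT RT (all genes 3.59% called), 1 was higher in KO RT against KO 0Gy (all genes 3.69%), and none passed in the other comparisons in limma. An unadjusted p under 0.05 was found for 16 in the KO effect after RT (29.1%; all genes 17.9%) and for 9 in the radiation effect in KO (16.4%; all genes 18.1%). It was found for 4 in the KO effect at 0Gy (7.27%; all genes 14.3%), 2 in the radiation effect in WT (3.64%; all genes 18.2%) and 5 in the difference of radiation effects (9.09%; all genes 6.61%). TTC19, which clears fragments of the Rieske protein during complex III turnover, was at 23.5, 41.3 and 24.3 TPM in WT 0Gy and 25.5, 24.1 and 20.1 in KO 0Gy. It was at 21.7, 22.6 and 24.1 TPM in WT RT and 41.2, 47.8 and 46.4 in KO RT. It rose in KO RT against WT RT, with a log2 fold change of 0.95 (SE 0.18, 95% interval 0.55 to 1.36, adjusted p = 0.017), and against KO 0Gy, with a log2 fold change of 0.93 (adjusted p = 0.021), and both calls held in 18 of 22 alternatives. The first was lost without WT RT replicate 1 or 2 or KO RT replicate 2 or 3 (adjusted p 0.063 to 0.069), the second without KO 0Gy replicate 2 or 3 or KO RT replicate 2 or 3 (0.063 to 0.082). The second WT 0Gy library was as high as the KO RT libraries, and TTC19 overlaps other genes on both strands. DMAC1, an assembly factor of the complex I distal membrane arm, was lower in KO RT (36, 35.3 and 33.7 TPM) than in WT RT (42.6, 41.7 and 42.1 TPM), with a log2 fold change of -0.26 (adjusted p = 0.017). This call held in 16 of 22 alternatives, and was lost without any 1 WT RT library or KO RT replicate 3 (adjusted p 0.054 to 0.069), with the replicate block (0.051) and with only the libraries compared (0.081). At 0Gy too every KO library of DMAC1 (37.1, 37.1 and 37.4 TPM) lay below every WT library (39.4, 43.6 and 43.1 TPM). That log2 fold change was -0.17 (limma adjusted p = 0.14). The radiation effect on DMAC1 was 0.0050 in WT and -0.087 in KO.

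The carriers CYC1, the cytochrome c1 of complex III, and CYCS, cytochrome c itself, did not pass in any comparison in limma, where 1 of them had an unadjusted p under 0.05 in the KO effect after RT, with a log2 fold change of -0.32 (adjusted p = 0.24) and -0.20 (adjusted p = 0.52) for the KO effect after RT. None of the 12 nuclear regulators tested passed in limma either. They had 1, 2, 3, 1 and 0 at an unadjusted p under 0.05 in the KO effect at 0Gy and after RT, the effect of radiation on WT and on KO cells, and their difference, in that order. These were 8.33, 16.7, 25, 8.33 and 0% of the list, against 14.3, 17.9, 18.2, 18.1 and 6.61% of all genes. PPARGC1A, a coactivator of mitochondrial genes, was below the filter, at 0 to 0.161 TPM.

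The 13 mitochondrially encoded subunits stood apart in level and in part in direction. They held 8.38 to 9.67% of a library in WT 0Gy, 8.02 to 9.26% in KO 0Gy, 8.88 to 9.83% in WT RT and 9.33 to 10.6% in KO RT. In the radiation effect in KO all 13 were above 0 (all genes 54.3%), with a median of 0.20, beside -0.021 for the 75 nuclear subunits. The 13 genes were measured in the same libraries and are not independent replicates. TPM is a share of the library, so a larger share for these 13 leaves less for all other genes. KO 0Gy replicate 1 had the lowest sum of the 13 (80156 TPM) and the highest sum of the 88 (16366 TPM). After rescaling without the mitochondrially encoded genes, the median of all genes for the radiation effect in KO was 0.041, beside 0.019 before. The part of this in the contrast was not tested. Of the 13, 2 were called higher, against 3.69% of all genes called (2% higher). An unadjusted p under 0.05 was found for 8 of the 13 (61.5%; all genes 18.1%). MT-ND6, a complex I subunit and the one protein encoded on the light strand, was at 957, 1080.1 and 947 TPM in KO 0Gy and 1372, 1293 and 1670.3 in KO RT, with a log2 fold change of 0.53 (SE 0.1, 95% interval 0.31 to 0.76, adjusted p = 0.019). The call was lost without KO 0Gy replicate 1 or 3 (adjusted p 0.067 to 0.072) and with only the libraries compared (0.090), and held in 18 of 21 alternatives. With no strand setting given for the counting, it is unknown whether reads of the opposite strand were kept out of the MT-ND6 values. MT-ND2 was at 3465, 3980.0 and 3795 TPM and 4509, 4343 and 4902 TPM, with a log2 fold change of 0.29 (adjusted p = 0.04999), a call that held in 5 of 21 alternatives. In the radiation effect in WT 12 of the 13 were above 0 (92.3%; all genes 54.0%). The median in WT cells was 0.082, with no call in limma and 1 unadjusted p under 0.05 (7.69%; all genes 18.2%). In the KO effect 2 of the 13 were above 0 at 0Gy (all genes 44.4%) and 12 after RT (all genes 46.0%). All 13 were above 0 in the difference of radiation effects (all genes 49.4%). The medians of the 13 were -0.031, 0.064 and 0.10 in that order. None was called in these comparisons in limma. An unadjusted p under 0.05 was found for 0, 15.4 and 7.69% of the 13, against 14.3, 17.9 and 6.61% of all genes.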

How the data were processed

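The deposited table held TPM values per gene, which the authors made from paired-end reads of polyadenylated RNA, and the submitters' processing notes name HISAT2, StringTie, DESeq2 and hg38 without versions. TPM keeps no read depth, so the depth of each library is unknown and no counting interval was given. Columns headed NT2 were taken as STING WT and A63 as STING KO.

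Genes at 1 TPM or more in at least 3 of 12 libraries were tested on log2(TPM + 1), so fold changes of low genes are understated. Limma 3.58.1 (R 4.3.3) fitted 4 group means with a trended prior and 8 residual degrees of freedom, p-values were Benjamini-Hochberg adjusted over all genes tested, and the threshold was 0.05. The method was tested on simulated data, but no outcome is given here, so no call rests on that. Figures and annotation used Python 3.11.15, pandas 2.3.3 and matplotlib 3.10.9. Positions are GRCh38, GENCODE annotation.

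The members and lists were chosen with earlier results of these data known. Genes were named if past the threshold, highest or most changed in their complex, catalytic core subunits, isoform pairs, listed genes past the threshold, cytochromes or TMEM173. Other named genes (among them NDUFB4, NDUFB6, NDUFAF7, NDUFS4 and COX7C) were chosen after their values were seen. The values of 1 member are not reported here, though it is counted. Alternatives covered the pseudocount, filters, scaling, the variance prior, the libraries fitted, a replicate block and leaving out each library.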

Additional observations from a re-analysis of the deposited data

Results flagged for a closer look

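The mean log2(TPM + 1) of the 4 complex II genes moved in opposite directions after radiation in the 2 genotypes. All 3 irradiated WT libraries lay above the WT 0Gy mean and all 3 irradiated KO libraries lay below the KO 0Gy mean, so that the radiation effect in KO minus that in WT was -0.258. SDHD had the largest part of it, with a difference of -0.63, beside -0.25 for SDHB, -0.20 for SDHC and 0.046 for SDHA, and its KO RT value was low in 2 of 3 libraries. For the 8 complex III genes the same held, and the difference was -0.108. There the WT 0Gy and WT RT libraries overlapped, and KO 0Gy replicate 1 was the highest of the 12 libraries. The means of complex IV moved in the same directions, up to 0.043 in WT RT, and down from 0.092 in KO 0Gy to 0.039 in KO RT. None of these differences was tested, and the KO 0Gy and KO RT libraries overlapped for complexes II, III and IV.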

How the results depend on the processing

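The count of members past the threshold in KO RT against WT RT was 1. It was 0 with no filter on low values, with quantile normalization, with no trend in the prior and with only the libraries compared, 2 with a mean TPM of at least 20, and 0 to 2 when each library was left out. In KO 0Gy against WT 0Gy it was 0, and 1 with a mean TPM of at least 5 or 20, with median-of-ratios factors and after rescaling without mitochondrially encoded genes, and 0 without any 1 library. For radiation in KO it was 1, 2 with median-of-ratios factors, and 0 with no filter, quantile normalization, rescaling, no trend, the replicate block or only the libraries compared, and 0 to 1 without 1 library. For radiation in WT and the difference of radiation effects it was 0 throughout. The causes were not tested.

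Over the alternatives the median fold change of the members ran from 0.0059 to 0.056 in KO 0Gy against WT 0Gy. In KO RT against WT RT it ran from 0.010 to 0.036. Its sign was not stable for radiation in WT (-0.013 to 0.016) or KO (-0.032 to 0.014). Nor was it for the difference of radiation effects, which was 0.0014 without KO 0Gy replicate 1 (-0.037 to 0.0014 over the libraries left out). Of all the genes called in KO 0Gy against WT 0Gy, the share called higher was 26.8%, and 37.0% with median-of-ratios factors. For radiation in KO the share was 54.1%, and 64.8% after rescaling, but 45.2% with median-of-ratios factors and 46.8% with quantile normalization. In KO RT against WT RT it was 25.8%, and 35.8% with quantile normalization.

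Replicate numbers did not pair the libraries: same-numbered libraries correlated in their deviations at -0.060 to 0.064, and 4 of 12 correlated best with their own number. With the replicate block the count in KO RT against WT RT stayed at 1, NDUFAF7 (adjusted p = 0.040) in place of NDUFS5 (0.064), and for radiation in KO it was 0. The block also ended the calls of DMAC1 (0.051) and MT-ND2 (0.098). The difference of radiation effects could not be fitted with only the libraries compared, since it uses all of them. Depth is unknown, so no limit on low genes was set.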
